A study of Mus musculus with 20 samples.

Results

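The genes described here are 6 mouse genes that act at the start of meiotic recombination: Spo11, Mei1, Ccdc36, Hormad1, Hormad2 and Trip13. They were chosen by symbol, as genes of meiotic break formation and HORMA-domain axis control, from a table of 23235 genes, and all 6 were present. The cells were spermatocytes isolated by FACS from adult testes, and the mice had a C57BL/6 background. The 12 RNA libraries formed 6 groups of 2: pachytene, diplotene and meiosis II cells, each from WT and from Cxxc1-null males. Each library was made from sorted cells by Smart-seq2, which primes on poly(A) tails, and the 8 ChIP libraries of the series were not analysed here. CXXC1 binds unmethylated CpG and belongs to the SETD1 complexes that methylate histone H3 lysine 4, and the series title asks about H3K4me3 and crossover formation. The sources used here give neither the deleted part of Cxxc1, nor what drove the deletion, nor the number of animals behind a library. The spread behind each p-value is that between the 2 libraries of a group, pooled over the 6 groups and partly borrowed from other genes. It may thus be technical. Values are FPKM, in which fragments are divided by transcript length and by the library's total, and are therefore shares of a library: fewer cells of a type and less RNA per cell cannot be told apart.

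Meiotic recombination starts with programmed double-strand breaks made by SPO11, a relative of the archaeal topoisomerase VI catalytic subunit. MEI1 is required for the breaks, and CCDC36, now named IHO1, joins REC114 and MEI4 in assemblies on the chromosome axis that promote them. HORMAD1 and HORMAD2 are HORMA-domain proteins that coat axes that are not yet synapsed. HORMAD1 recruits IHO1, both HORMADs take part in ATR signalling at unsynapsed axes, and TRIP13, an AAA+ ATPase, removes HORMADs from axes once homologs synapse. These proteins act mainly in leptotene, zygotene and early pachytene cells, and the RNA libraries hold no leptotene or zygotene group.

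Cxxc1 itself was listed between 11.7 and 17.6 FPKM in the 6 WT libraries. It lay between 8.29 and 9.57 FPKM in the Cxxc1-null pachytene and diplotene libraries and between 2.02 and 3.10 FPKM in the Cxxc1-null meiosis II libraries; the difference passed in meiosis II (log2 difference -1.96 ± 0.25, limma adjusted p = 0.00243) and not in pachytene (-0.56, limma adjusted p = 0.472) or diplotene (-0.74, limma adjusted p = 0.221). A library held 9838 to 11624 genes at 1 FPKM or more. On the principal components of all tested genes, WT pachytene replicate 2 and Cxxc1-null diplotene replicate 2 stood apart from the other library of their group. The markers of pachytene and diplotene cells were all present: 8 of 8 reached 1 FPKM in every group. Spermatid markers, 8 of 8 in every group, summed to between 1440 and 2230 FPKM in the pachytene libraries, to between 157 and 810 FPKM in the diplotene ones, to 7290 and 10400 FPKM in WT meiosis II and to 1990 and 4430 FPKM in Cxxc1-null meiosis II. Sertoli markers summed to at most 26.1 FPKM before meiosis II and to between 201 and 267 FPKM in it, mostly Clu. In meiosis II Cldn11 lay between 13.5 and 26.6 FPKM (at most 2.78 before it), Wt1 between 1.94 and 3.18 FPKM (at most 0.735). Sox9 lay there between 1.5 and 2.13 FPKM (at most 0.419 before it). The Sertoli genes Amh and Gata4 stayed under 1 FPKM in all libraries. Of these, Gata4 lay between 0.451 and 0.981 FPKM in meiosis II and at most at 0.0757 FPKM before it. Leydig markers summed to between 9.2 and 68.4 FPKM before meiosis II and to between 47.4 and 270.0 FPKM in it, mostly Insl3, and peritubular, endothelial and blood markers to between 1.17 and 8.64 FPKM in all libraries.

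The 6 genes differed widely in level. Hormad1 was the most abundant of them in pachytene, and its level there was many times that of its paralog Hormad2, a difference per transcript length. In WT pachytene, Hormad1 was measured at 1448 and 466 FPKM, and in Cxxc1-null pachytene at 916 and 887 FPKM. The WT pair lay 3.11-fold apart and enclosed both Cxxc1-null values; Hormad1 ranked between 105 and 326 from the top of all genes in these 4 libraries. In diplotene, Hormad1 stood at 215 and 123 FPKM in WT and at 227 and 145 FPKM in Cxxc1-null cells. In meiosis II, it stood at 80.2 and 47.7 FPKM in WT and at 57.0 and 50.9 FPKM in Cxxc1-null cells. The pachytene, diplotene and meiosis II libraries of Hormad1 did not overlap in either genotype, while in 38.7% (WT) and 38.6% (Cxxc1-null) of all tested genes both diplotene libraries lay below both pachytene ones, and in 35.8% and 36.0% both meiosis II libraries lay below both diplotene ones. WT and Cxxc1-null libraries overlapped at each stage.

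Hormad2 was listed at 43.2 and 32.7 FPKM in WT pachytene and at 34.0 and 22.4 FPKM in Cxxc1-null pachytene. Its diplotene levels were 14.5 and 5.74 FPKM in WT and 10.1 and 7.41 FPKM in Cxxc1-null cells. Its meiosis II levels were 7.43 and 3.75 FPKM in WT and 5.19 and 4.28 FPKM in Cxxc1-null cells. All 4 pachytene libraries lay above all 4 diplotene ones, as in 24.6% of all tested genes, while the WT diplotene and meiosis II ranges of Hormad2 overlapped.

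Trip13, the gene of the HORMAD-removing ATPase, had 14.9 and 13.1 FPKM in WT pachytene and 14.7 and 13.8 FPKM in Cxxc1-null pachytene. In diplotene it had 6.90 and 4.20 FPKM in WT and 8.23 and 6.81 FPKM in Cxxc1-null cells. In meiosis II it had 2.33 and 1.42 FPKM in WT and 3.88 and 3.75 FPKM in Cxxc1-null cells. The 2 genotypes overlapped in pachytene and diplotene, and in meiosis II both Cxxc1-null libraries lay above both WT ones.

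Spo11, the gene of the break-forming enzyme, stayed abundant long after breaks are made. It had 169 and 122 FPKM in WT pachytene, 192 and 160 FPKM in Cxxc1-null pachytene, 174 and 92.3 FPKM in WT diplotene and 193 and 131 FPKM in Cxxc1-null diplotene. In meiosis II it had 83.6 and 57.2 FPKM in WT and 78.9 and 62.5 FPKM in Cxxc1-null cells. The pachytene and diplotene groups overlapped one another, all 4 meiosis II libraries lay below all 8 others as in 17.5% of all tested genes, and the genotypes overlapped at every stage. The table gives 1 value per gene, so the Spo11 splice forms were not separated.

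Ccdc36, which encodes the axis-bound break factor, had its highest group means in diplotene. It was measured at 6.57 and 8.25 FPKM in WT pachytene and 7.08 and 5.37 FPKM in Cxxc1-null pachytene, then at 11.4 and 7.79 FPKM in WT diplotene and 12.2 and 8.56 FPKM in Cxxc1-null diplotene. In meiosis II it was at 6.17 and 4.04 FPKM in WT and at 2.09 and 1.74 FPKM in Cxxc1-null cells. The genotypes overlapped in the first 2 stages and were apart in meiosis II. In the RefSeq gene table the span of Ccdc36 overlaps that of 1700102P08Rik, an abundant gene (133 FPKM in WT meiosis II on average), and without strand information reads of the 2 genes could be exchanged.

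Mei1, which encodes a factor needed for break formation, was near the floor of the tested genes. It had 0.264 and 1.02 FPKM in WT pachytene, 1.00 and 1.29 FPKM in Cxxc1-null pachytene, 1.33 and 1.43 FPKM in WT diplotene and 2.63 and 2.58 FPKM in Cxxc1-null diplotene. In meiosis II it had 1.99 and 1.94 FPKM in WT and 3.14 and 1.77 FPKM in Cxxc1-null cells. Mei1 was the only 1 of the 6 with its lowest group mean in pachytene in both genotypes.

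**Figure D1:**
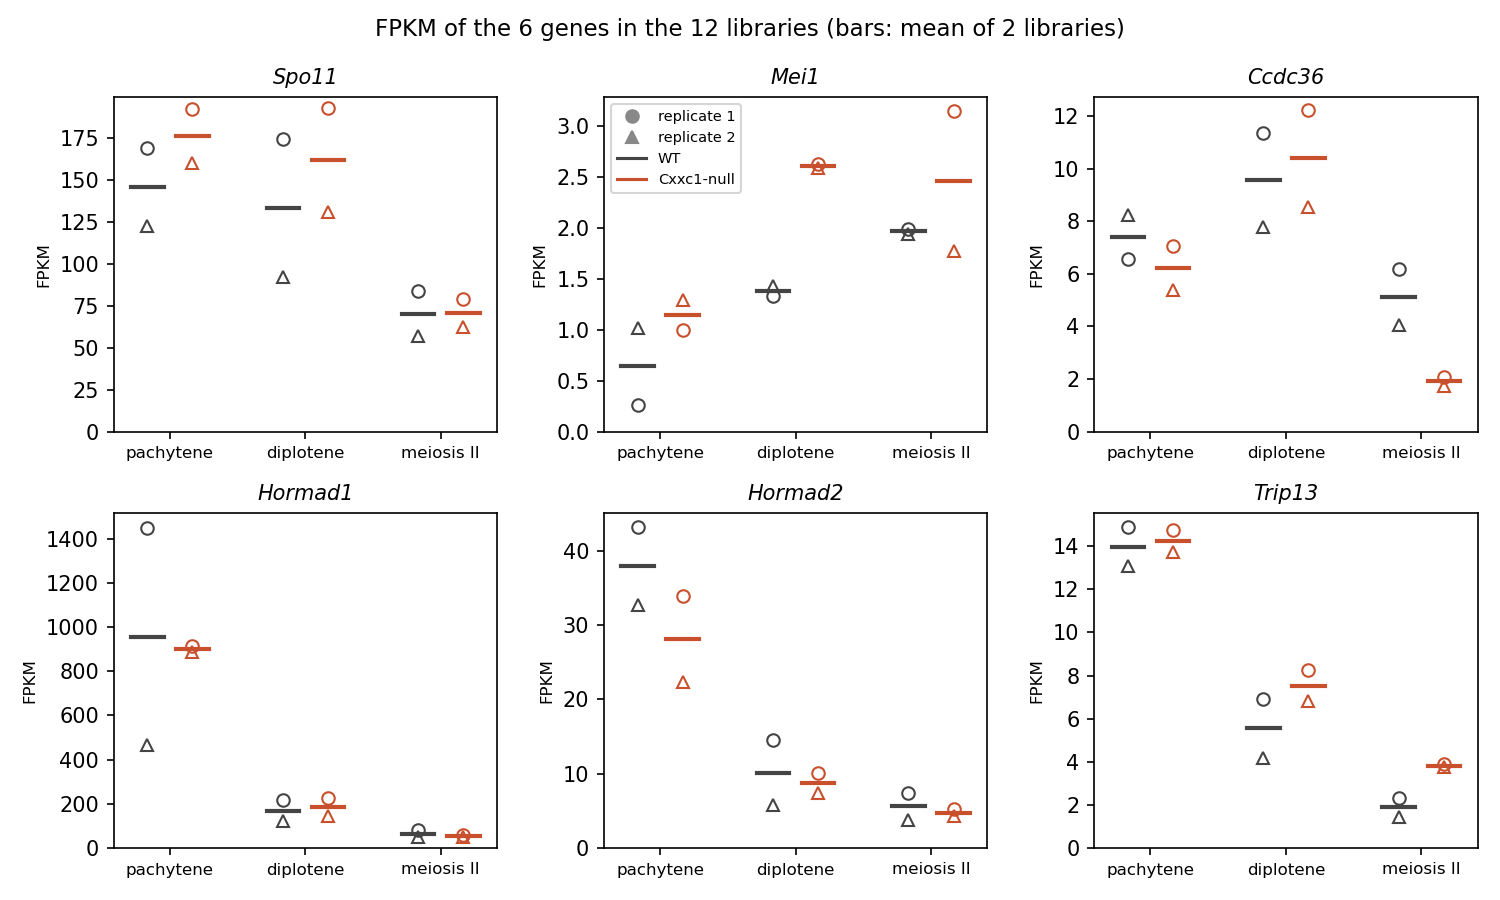
FPKM (vertical axes, linear from 0, a separate scale for each gene) of the 6 genes by stage (horizontal axes) in WT (dark grey) and Cxxc1-null (red-orange) libraries; circles and triangles are replicates 1 and 2 and bars are means of 2 libraries. The WT mean of Hormad1 was 957 FPKM in pachytene and 63.9 FPKM in meiosis II, Mei1 had its lowest means in pachytene, and the genotypes separate in meiosis II for Ccdc36 and Trip13.

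The first question was how these genes changed as cells left pachytene. The 2 HORMA-domain genes and Trip13 fell from pachytene to diplotene in both genotypes, and none of the 6 passed as higher. WT diplotene cells held 17.7% of the WT pachytene mean of Hormad1, 26.7% of that of Hormad2 and 39.7% of that of Trip13; the Cxxc1-null percentages were 20.6, 31.1 and 52.8. Differences were tested with limma on log2(FPKM + 1), where a group of 2 borrows its spread from all groups and genes, and p-values were adjusted over the 12956 genes that reached 1 FPKM in 2 or more libraries. In WT, the log2 difference of Hormad1 was -2.33 ± 0.49 (standard error, n = 2 per group, limma adjusted p = 0.00821), that of Hormad2 -1.92 ± 0.42 (limma adjusted p = 0.00934) and that of Trip13 -1.22 ± 0.26 (limma adjusted p = 0.0087). In Cxxc1-null cells the same 3 differences were -2.31 ± 0.49, -1.57 ± 0.42 and -0.84 ± 0.26 (limma adjusted p = 0.00969, 0.0206 and 0.0353). So 3 of 6 genes passed as lower in each genotype, beside 17.4% of all tested genes in WT and 17.4% in Cxxc1-null cells. As higher, 0 passed, beside 9.08% and 11.9%. The median over the 6 genes was -0.70 in WT and -0.49 in Cxxc1-null cells against -0.11 and -0.09 over all genes.

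The other 3 genes did not pass at this step. Spo11 had log2 differences of -0.18 ± 0.34 in WT and -0.14 ± 0.34 in Cxxc1-null cells, and diplotene cells held 91.4% and 91.9% of the pachytene means. Ccdc36 had positive differences of 0.32 ± 0.29 and 0.65 ± 0.29, and Mei1 of 0.58 ± 0.26 and 0.75 ± 0.26 (limma adjusted p = 0.122 and 0.0502). Centring each library on a common median moved all WT differences of this step by 0.205 and all Cxxc1-null ones by 0.115; Mei1 then passed in both genotypes (0.78 and 0.87, limma adjusted p = 0.0336 and 0.0225), Trip13 in Cxxc1-null cells did not (-0.73, adjusted p = 0.0649), and the WT value of Spo11 turned to 0.02.

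These calls depended on single libraries and, in WT, on the spread shared across stages: 0 of 6 passed there when each comparison was fitted on its own libraries. In WT, 0 of 6 genes passed without diplotene replicate 2 and 1 without pachytene replicate 1, and in Cxxc1-null cells 0 passed without pachytene replicate 2 or diplotene replicate 2 and 1 without either of the other libraries, although Hormad1, Hormad2 and Trip13 stayed below pachytene in each of these fits. With no expression filter, Hormad2 (limma adjusted p = 0.0719) and Trip13 (0.0599) no longer passed in Cxxc1-null cells, and with the replicate number as a block Mei1 passed there as higher (0.75, limma adjusted p = 0.0434). The summed markers of spermatogonia and early meiotic cells were lower in diplotene too. They lay between 33.1 and 44.7 FPKM in the 4 pachytene libraries (7 of 9 markers reaching 1 FPKM in each group) and between 6.67 and 15.1 FPKM in the 4 diplotene ones (2 of 9). Stra8 was at 0 in both Cxxc1-null diplotene libraries. Of 8 tested markers, 4 passed as lower in WT and 5 in Cxxc1-null cells, beside 17.4% of all tested genes in each. Gfra1 (0.42 in WT and 0.27 in Cxxc1-null cells) and Nanos3 (0.31 and 0.09) had positive differences and did not pass. Spermatid marker sums were also lower in diplotene, with negative differences for 8 of 8 markers in each genotype, of which 1 passed in WT and 4 in Cxxc1-null cells. The part of either marker list in the falls was not tested.

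From diplotene to meiosis II, Ccdc36, Hormad1 and Trip13 passed as lower in both genotypes, and Spo11 passed in Cxxc1-null cells. This step shares its diplotene libraries with the one before. Spo11 had a log2 difference of -1.17 ± 0.34 in Cxxc1-null cells (limma adjusted p = 0.0177) and of -0.87 ± 0.34 in WT (limma adjusted p = 0.061). The change of its genotype difference at this step was -0.30 ± 0.48, so the fall is not shown to differ between genotypes. Meiosis II cells held 48.3% of the pachytene mean of Spo11 in WT and 40.1% in Cxxc1-null cells. Ccdc36 fell in both genotypes, by a log2 difference of -0.79 ± 0.29 in WT (limma adjusted p = 0.0436) and of -1.95 ± 0.29 in Cxxc1-null cells (limma adjusted p = 0.000472). Hormad1 fell again in both (-1.38 ± 0.49 and -1.73 ± 0.49), as did Trip13 (-1.17 ± 0.26 and -0.82 ± 0.26).

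Hormad2 had -0.69 ± 0.42 and -0.76 ± 0.42 at this step and did not pass in either genotype. Mei1 had 0.32 ± 0.26 in WT and -0.09 ± 0.26 in Cxxc1-null cells. Thus 3 of 6 genes fell in WT and 4 of 6 in Cxxc1-null cells, beside 18.9% and 18.8% of all tested genes, and the median over the 6 was -0.83 and -0.99 against 0.02 and -0.01 over all genes. Spo11 in WT passed with a common median (-1.16, limma adjusted p = 0.0213), which moved all WT differences of this step by -0.297 and all Cxxc1-null ones by -0.111. In WT, 1 of 6 passed without diplotene replicate 1 or meiosis II replicate 2 and 5 passed without diplotene replicate 2; in Cxxc1-null cells 1 passed without diplotene replicate 1 or meiosis II replicate 2. With no expression filter, Ccdc36 (limma adjusted p = 0.0753) and Hormad1 (0.128) no longer passed in WT, nor Hormad1 (0.0631) and Spo11 (0.0563) in Cxxc1-null cells. With the replicate number as a block, Spo11 also passed in WT (limma adjusted p = 0.00352), and Hormad2 in WT and Cxxc1-null cells (0.0323 and 0.0229). The spermatid and Sertoli marker sums rose at this same step, and 8 of 8 spermatid and 5 of 5 tested Sertoli markers passed as higher in each genotype, beside 26.1% of all tested genes in WT and 25.3% in Cxxc1-null cells; their part in the falling shares of these 6 genes was not tested.

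**Figure D2:**
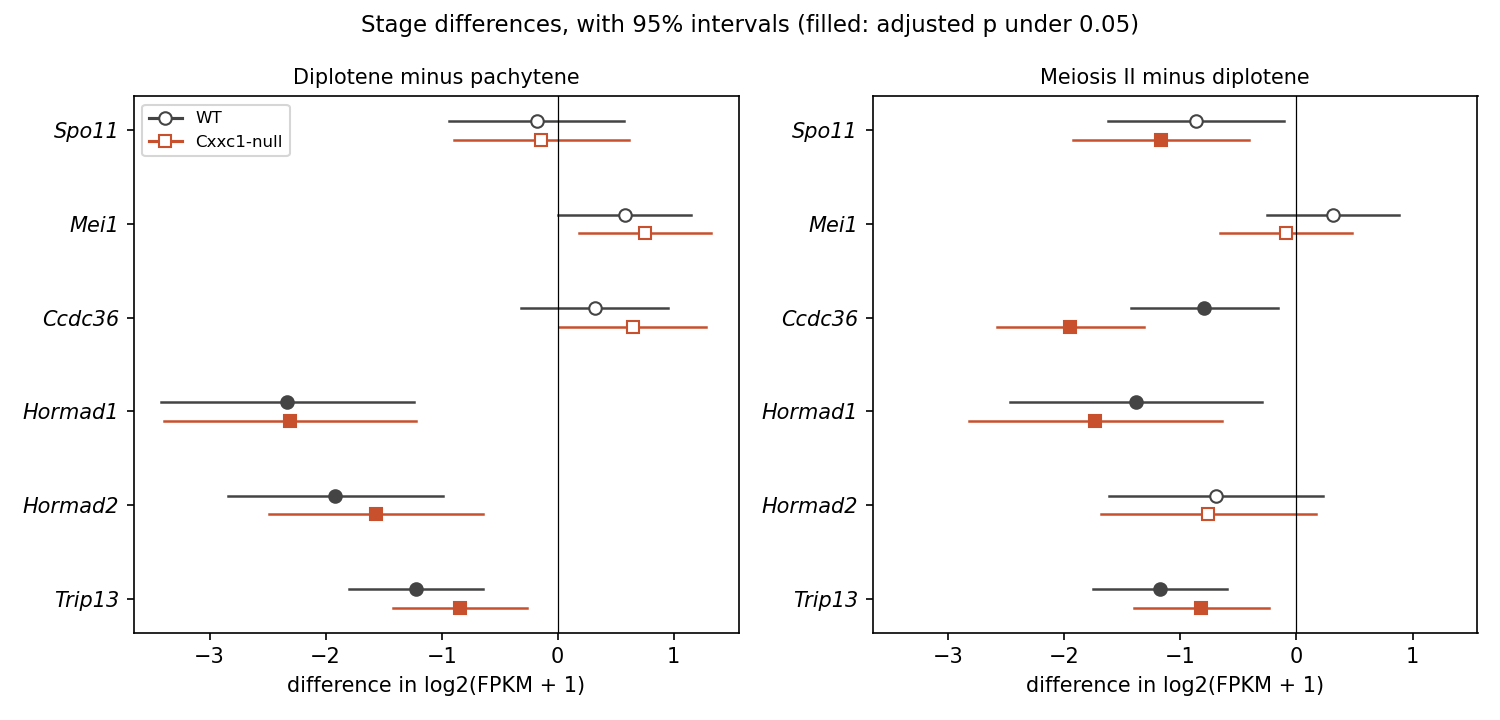
Differences in log2(FPKM + 1) (horizontal axes) between successive stages for the 6 genes in WT (dark grey circles) and Cxxc1-null cells (red-orange squares), with 95% intervals from limma; filled symbols passed at an adjusted p under 0.05. Hormad1, Hormad2 and Trip13 lie left of 0 at the first step in both genotypes, and the intervals of Spo11, Ccdc36, Hormad1 and Trip13 lie wholly left of 0 at the second in both.

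Ratios within a library do not depend on its total; those given here were chosen after their values were seen and were not tested. Hormad1 exceeded Hormad2 in all 12 libraries, by 10.8-fold to 39.5-fold. The ratio was 33.5 and 14.2 in WT pachytene, 27.0 and 39.5 in Cxxc1-null pachytene, and between 10.8 and 12.7 in the 4 meiosis II libraries. The order of Hormad1 and Spo11 changed along the stages: Hormad1 stood 3.80-fold to 8.57-fold above Spo11 in the 4 pachytene libraries, 1.10-fold to 1.33-fold above it in diplotene, and at 0.723 to 0.960 of it in meiosis II.

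The levels of Hormad1, Hormad2 and Trip13 moved closely together over the 12 libraries, which share their stages, so the correlations that follow are descriptions. Pearson's r of log2(FPKM + 1) was 0.959 between Hormad1 and Hormad2, 0.934 between Hormad1 and Trip13 and 0.908 between Hormad2 and Trip13. Spo11 correlated with these 3 at 0.776 to 0.854, Ccdc36 at 0.436 to 0.482 and with Spo11 at 0.735, and Mei1 negatively with all 5 others, from -0.226 to -0.782. The 3 named genes most like Hormad1 were Haus3, an augmin subunit gene, Fubp3 and Pcnp (r = 0.992 each), and 1147 genes exceeded 0.9 with it. Those most like Hormad2 were Fsd1l, Zfp1 and Mfsd8 (0.980 to 0.982), and those most like Trip13 were the copper transporter gene Slc31a1, Pak1ip1 and the S6 kinase gene Rps6kb1 (0.987 to 0.991). Slc31a1, Pak1ip1 and Rps6kb1 had Cxxc1-null meiosis II means of 9.55, 38.0 and 2.06 FPKM, above their WT means of 5.56, 24.8 and 0.926 FPKM. They were picked for their likeness to Trip13 over libraries that include these, so this direction is not separate from that of Trip13.

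Fewer genes followed the other 3. For Spo11, 226 genes exceeded r = 0.9, led by Snapin (0.990), which encodes a SNARE-associated protein, Tmem168 (0.970) and Diablo (0.969), an apoptosis regulator gene. For Ccdc36, 140 did, led by the stomatin gene Stom (0.987), Kidins220 (0.982) and Sae1 (0.979), a subunit gene of the SUMO-activating enzyme. In meiosis II the mean of Stom was 12.5 ± 4.71 FPKM (SD, n = 2) in WT and 4.76 ± 1.67 FPKM in Cxxc1-null cells, that of Kidins220 2.43 and 1.07 FPKM and that of Sae1 82.9 and 35.3 FPKM. These 3 genes were picked for their likeness to Ccdc36 over the same libraries, so their lower means are not separate from that of Ccdc36. For Mei1, 61 genes exceeded 0.9, led by the basement membrane gene Nid2 (0.964), Pcbp3 (0.944) and the exportin gene Xpo5 (0.943).

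Because CXXC1 binds CpG, the 250 bases before the annotated start of 4 of them are shown, from RefSeq on GRCm38.p6, 5′ to 3′ on the gene's strand, with each CG in capitals. Hormad1, Hormad2 and Trip13 are the genes that fell together. Ccdc36 (there named Iho1) is the 1 that passed as lower in Cxxc1-null meiosis II, a call at the threshold (limma adjusted p = 0.0443). The windows are chr3:95559427-95559676 (plus strand), chr11:4441083-4441332 (minus), chr13:73937768-73938017 (minus) and chr9:108431827-108432076 (minus), a different build from the mm9 named for the expression table.
Hormad1: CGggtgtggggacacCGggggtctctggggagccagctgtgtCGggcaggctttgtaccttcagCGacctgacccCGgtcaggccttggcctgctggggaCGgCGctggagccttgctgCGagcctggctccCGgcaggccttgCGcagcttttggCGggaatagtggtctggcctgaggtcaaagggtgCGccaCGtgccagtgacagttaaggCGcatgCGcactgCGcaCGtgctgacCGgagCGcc
Hormad2: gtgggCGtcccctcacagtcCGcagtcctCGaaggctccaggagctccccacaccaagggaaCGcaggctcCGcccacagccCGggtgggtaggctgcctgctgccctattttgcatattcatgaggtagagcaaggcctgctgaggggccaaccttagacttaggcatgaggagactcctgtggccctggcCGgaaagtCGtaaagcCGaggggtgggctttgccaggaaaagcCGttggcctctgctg
Trip13: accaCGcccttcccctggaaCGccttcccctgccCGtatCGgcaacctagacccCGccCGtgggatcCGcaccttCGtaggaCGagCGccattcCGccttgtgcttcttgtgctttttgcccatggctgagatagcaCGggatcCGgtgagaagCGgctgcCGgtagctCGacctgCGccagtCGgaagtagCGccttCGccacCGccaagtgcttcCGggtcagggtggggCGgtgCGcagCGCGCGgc
Ccdc36: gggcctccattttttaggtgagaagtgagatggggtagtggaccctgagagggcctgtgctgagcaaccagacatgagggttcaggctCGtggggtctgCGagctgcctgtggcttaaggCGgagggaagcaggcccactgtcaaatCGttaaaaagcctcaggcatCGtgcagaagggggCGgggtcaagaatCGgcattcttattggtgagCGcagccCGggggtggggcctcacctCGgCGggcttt
The Trip13 window held 27 CG and the Hormad1 window 19, more than 91.8% and 80.4% of the windows of 27025 genes, while the Ccdc36 window held 11, the Hormad2 window 10 and the Mei1 window 8, against a median of 6. The 3 genes that fell together thus spanned 10 to 27 CG. The letters TCCCGC, the core of E2F sites, occurred on either strand once in the Hormad1 window and in no other of the 5 matched windows, beside 16.9% of all windows. The E-box CACGTG, a palindrome, occurred at 2 places in the Hormad1 window only (6.05% of all windows), and CNCCTCAG, letters reported for STRA8-bound promoters, on either strand once in the Hormad2 window only (6.39%). These are matches of letters and were not tested as binding sites, and the motifs do not overlap one another where they occurred.

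The second question was whether loss of Cxxc1 changed these genes. In pachytene and diplotene none of the 6 passed, and few genes of any kind did: 0.355% of all tested genes in pachytene and 0.787% in diplotene. At an unadjusted p under 0.05, 0 of 6 stood out in pachytene (1388 of all genes) and 1 of 6 in diplotene (1747 of all genes), which was Mei1. Mei1 had 1.38 ± 0.0679 FPKM (SD, n = 2) in WT and 2.60 ± 0.0321 FPKM in Cxxc1-null diplotene, a log2 difference of 0.60 ± 0.26 (limma adjusted p = 0.346), with both Cxxc1-null libraries above both WT ones, as in 30.4% of all tested genes at that stage.

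The intervals of the other genes were wide. For Spo11 the 95% interval of the log2 difference ran from -0.47 to 1.04 in pachytene and from -0.43 to 1.08 in diplotene. For Hormad1 it ran from -0.95 to 1.22 and from -0.93 to 1.24, and for Hormad2 from -1.36 to 0.49 and from -1.01 to 0.84. The pachytene value of Hormad1, 0.13 ± 0.49, turned to -0.68 without WT replicate 2 and rose to 0.95 without WT replicate 1, so the difference between the 2 WT libraries exceeded that between the genotypes.

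In meiosis II, Ccdc36 was lower in Cxxc1-null cells. The Cxxc1-null mean was 1.92 ± 0.248 FPKM (SD, n = 2) and the WT mean 5.11 ± 1.51 FPKM, a ratio of 0.375, and the log2 difference was -1.05 ± 0.29 (limma adjusted p = 0.0443), beside 4.35% of all tested genes that were lower. The 2 Cxxc1-null values were the lowest of the 4, as for 26.4% of all tested genes. Within libraries, Spo11 exceeded Ccdc36 by 13.5-fold and 14.2-fold in WT meiosis II and by 37.7-fold and 35.9-fold in Cxxc1-null meiosis II. It did so by 11.8-fold to 15.8-fold in the 4 diplotene libraries. In pachytene the ratios were 25.7 and 14.8 in WT and 27.2 and 29.8 in Cxxc1-null cells. These ratios use the same Ccdc36 values and were not tested. The call sits at the threshold: without each of the 4 meiosis II libraries in turn the adjusted p lay between 0.0662 and 0.261, with the log2 difference between -1.30 and -0.79, and it was 0.0507 with a filter at 5 FPKM, 0.0695 with no filter and 0.0959 when meiosis II was fitted alone. The overlapping 1700102P08Rik had 137 and 129 FPKM in WT and 83.3 and 80.9 FPKM in Cxxc1-null meiosis II (log2 difference -0.69 ± 0.21, limma adjusted p = 0.0657), and its part in the difference was not tested. The WT and Cxxc1-null means of 1700102P08Rik were 767 and 581 FPKM in pachytene and 552 and 376 FPKM in diplotene. Those of Ccdc36 were 7.41 and 6.225 FPKM in pachytene and 9.58 and 10.4 FPKM in diplotene.

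Trip13 was the other gene whose genotypes separated in meiosis II, in the opposite direction, and it did not pass. Its means were 1.88 ± 0.64 FPKM (SD, n = 2) in WT and 3.82 ± 0.0874 FPKM in Cxxc1-null cells, a ratio of 2.03, and the log2 difference was 0.76 ± 0.26 (95% interval 0.18 to 1.34, limma adjusted p = 0.0937). With the replicate number as a block across genotypes, it passed (limma adjusted p = 0.0426). Both Cxxc1-null libraries lay above both WT libraries, as in 30.1% of all tested genes. Hormad1 exceeded Trip13 by 34.4-fold and 33.5-fold in WT meiosis II and by 14.7-fold and 13.6-fold in Cxxc1-null meiosis II. Of its pachytene mean, Trip13 kept 13.4% in WT and 26.8% in Cxxc1-null cells, while Hormad1 kept 6.68% and 5.98% and Hormad2 14.7% and 16.8%.

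The remaining genes overlapped between genotypes in meiosis II. Spo11 had a log2 difference of 0.02 ± 0.34, Hormad1 of -0.20 ± 0.49, Hormad2 of -0.15 ± 0.42 and Mei1 of 0.19 ± 0.26. In all, 1 of 6 genes passed in meiosis II, beside 10.5% of all tested genes in either direction. Spermatid markers summed lower in Cxxc1-null meiosis II than in WT, as given above, with 0 of 8 passing. The log2 differences of Prm1, Prm2, Tnp1 and Tnp2 lay between -2.32 and -1.68, and those of Acrv1, Txndc8, Gapdhs and Spaca1 between -0.22 and 0.32. Of 5 tested Sertoli markers 1 passed, Dhh, which was higher in Cxxc1-null meiosis II (1.21 ± 0.25, limma adjusted p = 0.0152), beside 6.14% of all tested genes. Dhh had similar differences in pachytene (1.14 ± 0.25) and diplotene (1.07 ± 0.25), which did not pass. The other 4, Sox9, Wt1, Cldn11 and Clu, had meiosis II differences between -0.40 and -0.26 and did not pass. The part of the spermatid and Sertoli markers in the meiosis II differences was not tested.

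Averaged over the 3 stages, none of the 6 passed, beside 16.7% of all tested genes, and 3 of 6 had an unadjusted p under 0.05 (4178 of all genes). Mei1 had 0.40 ± 0.15 and Trip13 0.40 ± 0.15 (limma adjusted p = 0.0904 and 0.0977), and Ccdc36 had -0.39 ± 0.16 (limma adjusted p = 0.135). Mei1 passed without WT pachytene replicate 2 (0.52, limma adjusted p = 0.0342). Trip13 passed with the replicate number as a block across genotypes (limma adjusted p = 0.0455) and did not when stages were joined by replicate number within genotype (limma adjusted p = 0.39). Whether the genotype difference itself changed with stage was tested with an F test of the interaction, which 0 of 6 genes passed, beside 0.0540% of all tested genes; Ccdc36 had the smallest p of the 6 (unadjusted p = 0.0434, limma adjusted p = 0.55). The change of its genotype difference from diplotene to meiosis II was -1.16 ± 0.40. The meiosis II call of Ccdc36 is therefore not shown to differ from its values of -0.22 ± 0.29 in pachytene and 0.11 ± 0.29 in diplotene.

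**Figure D3:**
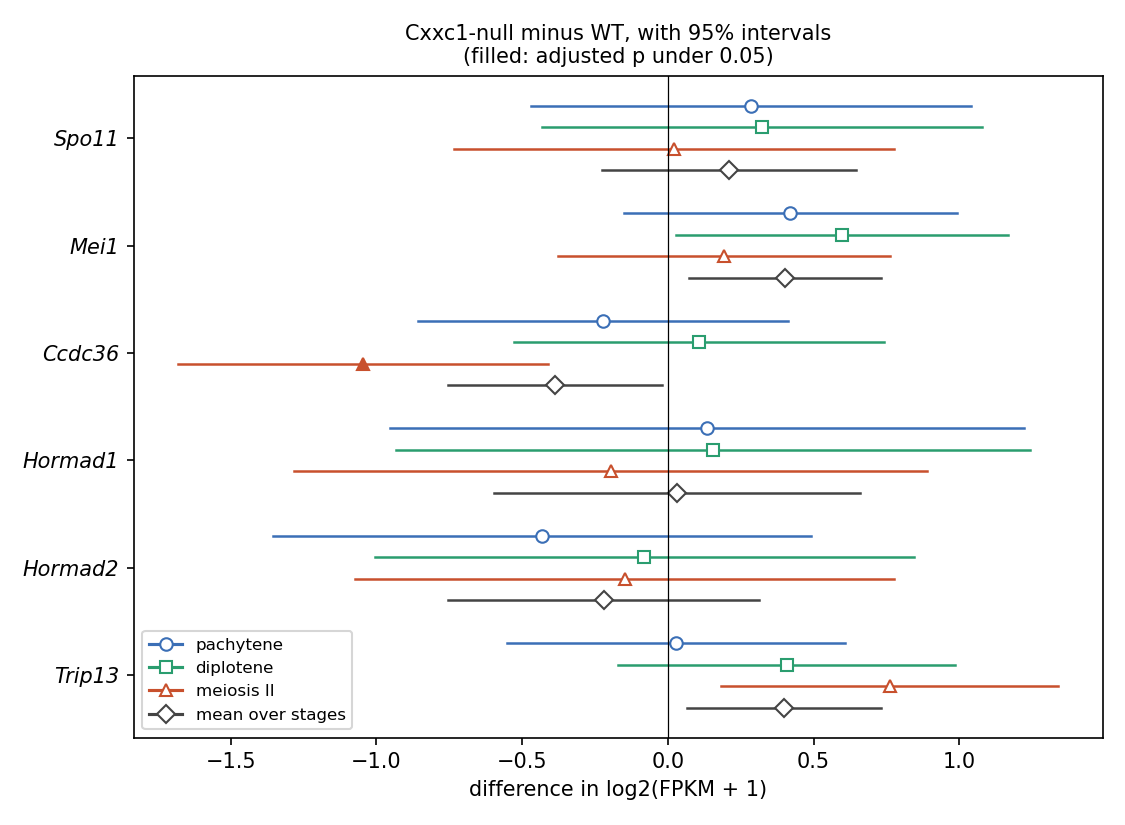
Cxxc1-null minus WT differences in log2(FPKM + 1) (horizontal axis) of the 6 genes within pachytene, diplotene and meiosis II and averaged over stages, with 95% intervals from limma; the filled symbol passed at an adjusted p under 0.05. Ccdc36 in meiosis II is the 1 filled symbol, at -1.05, and Trip13 in meiosis II lies at 0.76.

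**Figure D4:**
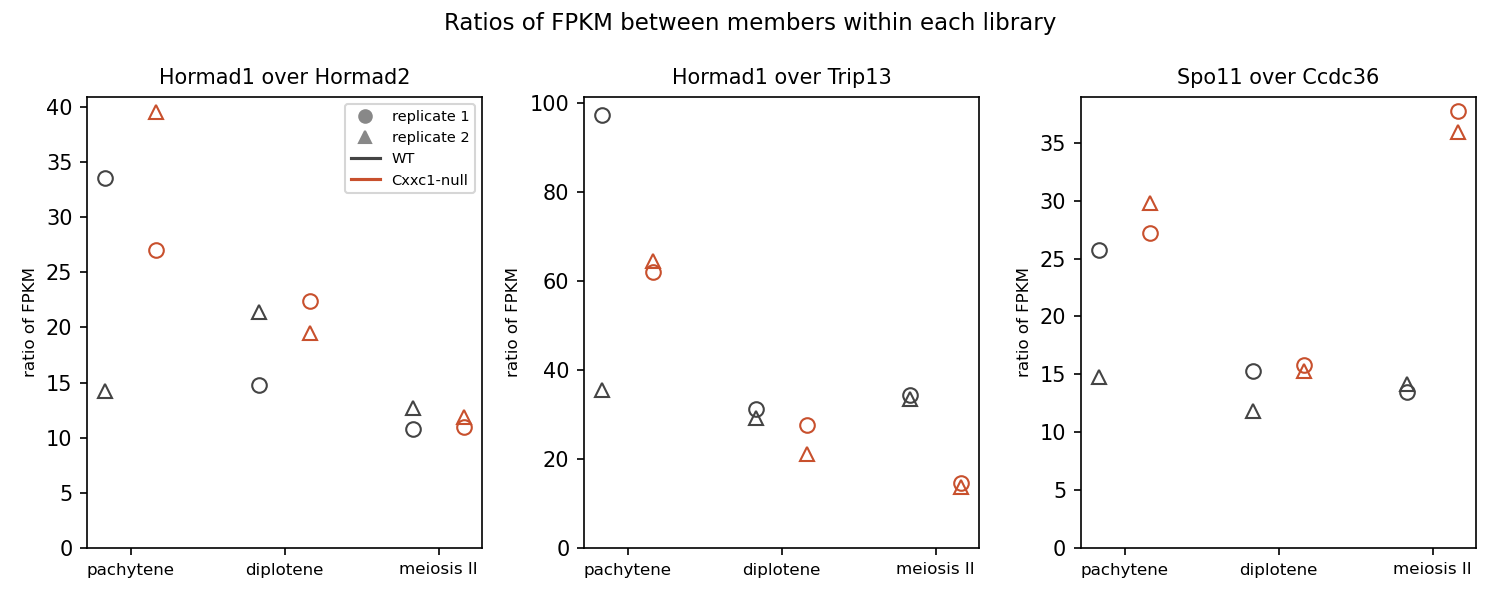
Ratios of FPKM between pairs of the 6 genes within each library (vertical axes, linear from 0) by stage, for WT (dark grey) and Cxxc1-null (red-orange); circles and triangles are replicates 1 and 2. In meiosis II the Spo11 over Ccdc36 ratio is 13.5 and 14.2 in WT and 37.7 and 35.9 in Cxxc1-null libraries, and the Hormad1 over Trip13 ratio is 34.4 and 33.5 against 14.7 and 13.6.

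The partners of these genes were taken as lists. Of 8 other break formation and end-processing genes in the table, 6 were tested, and none passed between genotypes at any stage or averaged. Of all tested genes, 0.355% passed in pachytene, 0.787% in diplotene, 10.5% in meiosis II and 16.7% averaged. From pachytene to diplotene 1 rose in each genotype and 1 fell in WT, beside 9.08% (WT) and 11.9% (Cxxc1-null) that rose and 17.4% that fell. From diplotene to meiosis II 1 rose in each and 1 fell in Cxxc1-null cells, beside 26.1% and 25.3% that rose and 18.8% that fell. Rec114, which encodes a partner of IHO1 and is named 2410076I21Rik in the table, fell in WT from 7.95 and 5.21 FPKM in pachytene to 1.68 and 2.24 FPKM in diplotene (log2 difference -1.34 ± 0.34, limma adjusted p = 0.0166); in Cxxc1-null cells its difference was -0.88 ± 0.34 (limma adjusted p = 0.0718). In meiosis II it had 1.90 and 1.67 FPKM in WT and 2.66 and 5.41 FPKM in Cxxc1-null cells (0.80 ± 0.34, limma adjusted p = 0.162). Gm960, the gene of the SPO11 partner TOPOVIBL, lay between 0.621 and 1.59 FPKM in all libraries, and Mei4 did not reach the level for testing. Nbn, a subunit gene of the MRE11 complex that trims break ends, rose from pachytene to diplotene in both genotypes (0.99 ± 0.24 in each). Tex15, a gene needed for break repair and piRNA-guided silencing, rose from diplotene to meiosis II in both (3.12 ± 0.27 and 2.48 ± 0.27). At that step Rad50 fell in Cxxc1-null cells (-0.84 ± 0.26, limma adjusted p = 0.0241) and did not pass in WT (-0.56 ± 0.26, limma adjusted p = 0.106).

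Sycp2 and Sycp3, which encode axis core proteins, fell at both steps in both genotypes; Sycp3 fell by log2 differences of -1.88 ± 0.37 and then -1.33 ± 0.37 in WT. The cohesin genes Rec8, Smc3 and Rad21 rose from diplotene to meiosis II in both genotypes, Rec8 by 3.76 ± 0.42 in WT and 3.03 ± 0.42 in Cxxc1-null cells. The list of axis and cohesin genes had 8 tested genes, of which Meikin (named 4930404A10Rik in the table) is a kinetochore gene. Of these 8, 4 fell from pachytene to diplotene in WT and 2 in Cxxc1-null cells, beside 17.4% of all tested genes in each. At that step 0 rose, beside 9.08% and 11.9%. From diplotene to meiosis II 3 fell and 3 rose in each genotype, beside 18.9% and 26.1% of all tested genes in WT and 18.8% and 25.3% in Cxxc1-null cells. The 3 that fell were Sycp2, Sycp3 and Meikin (-1.22 ± 0.23 in WT and -0.77 ± 0.23 in Cxxc1-null cells). None passed between genotypes, beside 0.355% of all tested genes in pachytene, 0.787% in diplotene, 10.5% in meiosis II and 16.7% averaged. Of 6 central region genes of the synaptonemal complex, 5 fell from pachytene to diplotene in each genotype, beside 17.4% of all tested genes in each, Tex12 by -3.14 ± 0.48 in each. The exception was Syce1, which was also the 1 that passed between genotypes averaged over stages (0.44 ± 0.11, limma adjusted p = 0.0247), where 11.5% of all tested genes were higher.

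Of 8 genes of other HORMA-domain proteins and TRIP13 partners, Mad2l1 fell at both steps in both genotypes. From pachytene to diplotene 1 fell in each genotype, beside 17.4% of all tested genes. At that step 1 rose in WT (Mad2l2, 0.70 ± 0.23) and 2 in Cxxc1-null cells (Mad1l1 and Atg13), beside 9.08% and 11.9%. From diplotene to meiosis II 2 fell and 1 rose in WT, and 3 fell and 1 rose in Cxxc1-null cells. Of all tested genes, 18.9% fell and 26.1% rose there in WT, and 18.8% and 25.3% in Cxxc1-null cells. Mad2l1 encodes the spindle checkpoint HORMA protein that TRIP13 remodels, and it had 86.1 and 43.7 FPKM in WT pachytene, 25.0 and 16.1 FPKM in WT diplotene and 2.73 and 2.37 FPKM in WT meiosis II. Its log2 differences were -1.57 ± 0.32 and then -2.57 ± 0.32 in WT, and -1.30 ± 0.32 and -2.54 ± 0.32 in Cxxc1-null cells. Mad2l1bp, the gene of the adaptor that brings MAD2 to TRIP13, rose from diplotene to meiosis II in both genotypes (0.64 ± 0.20 and 0.67 ± 0.20). Between genotypes 1 of the 8 passed, the checkpoint kinase gene Bub1b, lower in Cxxc1-null meiosis II (-1.09 ± 0.29, limma adjusted p = 0.0391), beside 10.5% of all tested genes.

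Of 12 genes of the signalling on unsynapsed chromatin, 5 fell and 1 rose from pachytene to diplotene in each genotype, and 7 fell and 1 rose from diplotene to meiosis II in WT, with 6 and 1 in Cxxc1-null cells. Of all tested genes, 17.4% fell at the first step in each genotype and 9.08% (WT) and 11.9% (Cxxc1-null) rose, and at the second 18.9% and 18.8% fell and 26.1% and 25.3% rose. Topbp1, which encodes an activator of ATR, fell by -1.48 ± 0.23 and then -1.89 ± 0.23 in WT, and Rad1, a subunit gene of the 9-1-1 clamp, by -1.15 ± 0.29 and -2.27 ± 0.29. Atr fell from diplotene to meiosis II (-1.35 ± 0.22 in WT and -2.04 ± 0.22 in Cxxc1-null cells), and Chek1, which fell first, rose at that step (1.23 ± 0.21 in WT). None of the 12 passed between genotypes at any stage or averaged. Of all tested genes, 0.355% did in pachytene, 0.787% in diplotene, 10.5% in meiosis II and 16.7% averaged.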

How the data were processed

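RNA was measured in 12 libraries, 2 for each of 3 stages and 2 genotypes. The authors deposited 1 table of FPKM per gene; TopHat2 2.1.1, Cufflinks 2.2.1 and the mouse build mm9 are named, without their roles, per the submitters' processing notes. Strandedness and read depth are not given in the sources used here, and whole reads could not be recovered: among genes under 0.3 FPKM, at most 22.9% shared the most common ratio in any of 66 library pairs. No interval for counting error is therefore given.

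The test took the 12956 of 23235 genes that reached 1 FPKM in 2 or more libraries, on log2(FPKM + 1), so fold changes of low genes are understated. Differences between groups were fitted over all 12 libraries with limma 3.58.1 in R 4.3.3, with a mean-variance trend, 6 residual degrees of freedom, 95% intervals and Benjamini-Hochberg adjustment over all tested genes at 0.05. The procedure was tested on simulated data. The genes, the lists of partner genes and cell type markers and the promoter motifs were chosen with earlier results of these data known. From each partner list, only some of the genes that passed or had the smallest p were named. For each of the 6 genes the 3 most correlated named genes are given. Alternatives were another pseudocount, other filters, quantile and median scaling, separate fits, no trend, a replicate block and leaving out libraries. The labels do not say whether a replicate number marks a shared animal or day. Differences between replicates 1 and 2 correlated over genes at 0.116 to 0.42 between stages of 1 genotype, and between genotypes at -0.0659 in pachytene, 0.321 in diplotene and 0.109 in meiosis II, so values with the number as a block are printed where they change a call.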

Additional observations from a re-analysis of the deposited data

How the results depend on the processing

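Of the results for single genes under alternative settings, 680 kept their direction and side of the threshold, 49 no longer passed, 18 newly passed and 36 changed sign; the cause was not tested. With no expression filter, the number of the 6 genes that passed was 0 between genotypes in meiosis II, 1 from WT diplotene to meiosis II, 1 from Cxxc1-null pachytene to diplotene and 2 from Cxxc1-null diplotene to meiosis II. In meiosis II 0 passed between genotypes with a 5 FPKM filter or a separate fit, and with separate fits 0 passed from WT pachytene to diplotene. With a replicate block, 2 passed between genotypes in meiosis II (Trip13, adjusted p = 0.0426, with Ccdc36), 1 averaged over stages (Trip13, limma adjusted p = 0.0455) and 5 from WT diplotene to meiosis II. From Cxxc1-null pachytene to diplotene 4 passed with the block and from Cxxc1-null diplotene to meiosis II 5. Leaving out 1 library at a time gave 0 to 0 between genotypes in meiosis II, 0 to 1 averaged over stages, 0 to 4 from WT pachytene to diplotene, 0 to 1 from Cxxc1-null pachytene to diplotene, 1 to 5 from WT diplotene to meiosis II and 1 to 3 from Cxxc1-null diplotene to meiosis II.

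Changes of sign were in values that did not pass. With quantile normalization they were Ccdc36 in diplotene between genotypes (-0.00492), Spo11 in meiosis II (-0.0186), Hormad1 averaged (-0.0351) and Mei1 from WT diplotene to meiosis II (-0.162). With a common median they were Trip13 in pachytene (-0.0143), Ccdc36 in diplotene (-0.0242), Hormad1 averaged (-0.00937) and Spo11 from WT pachytene to diplotene (0.0239). Without both libraries that stood apart, an alternative chosen after seeing the data, 1 gene passed from Cxxc1-null pachytene to diplotene, and the signs changed for Hormad1 (-0.684) and Trip13 (-0.0597) in pachytene, Hormad2 in diplotene (0.121), Hormad1 averaged (-0.134) and Spo11 from Cxxc1-null pachytene to diplotene (0.136). Leaving out 1 library, genotype differences spanned 0 in pachytene for Hormad1 (-0.684 to 0.951) and Trip13 (-0.0597 to 0.116), in diplotene for Spo11 (-0.13 to 0.778), Ccdc36 (-0.138 to 0.354), Hormad1 (-0.246 to 0.556) and Hormad2 (-0.681 to 0.52), in meiosis II for Spo11 (-0.247 to 0.291), Mei1 (-0.0974 to 0.482), Hormad1 (-0.566 to 0.172) and Hormad2 (-0.561 to 0.266), and averaged for Hormad1 (-0.242 to 0.303). Stage differences did so for Spo11 from pachytene to diplotene in WT (-0.635 to 0.273) and Cxxc1-null cells (-0.42 to 0.136) and for Mei1 from Cxxc1-null diplotene to meiosis II (-0.379 to 0.201). Over all tested genes, the number that passed between genotypes ranged over the alternatives from 1 to 86 in pachytene, 4 to 480 in diplotene, 219 to 1813 in meiosis II and 434 to 2695 averaged.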

Other observations

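Spo11, Hormad1, Hormad2 and Trip13 were each higher in replicate 1 than in replicate 2 in 6 of 6 groups, by a mean of 0.509, 0.671, 0.605 and 0.268 on the log2(FPKM + 1) scale. Ccdc36 was higher in replicate 1 in 5 groups and Mei1 in 3. Of all tested genes, 5.94% were higher and 4.18% lower in replicate 1 in all 6 groups. The labels do not say what the replicate number stands for.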
